A study of Trichoderma reesei with 36 samples.

Results

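The 7 genes described here encode the hydrophobins HFB1 (ID.73173), HFB2 (ID.119989) and HFB3 (ID.123967) of *T. reesei*, and 4 proteins that the study calls cell wall proteins, the putative QID74 (ID.74282), the gene ID.103458, the putative PhiA (ID.122127) and the putative Ncw-2 (ID.121818). They are 7 of the 9129 genes in the count tables, whose numeric gene IDs are written here after the letters ID and a point. The set was chosen by measured values, since all of them but HFB1 were picked out by their fold changes between feeds at the same sampling time. Values between feeds are therefore a description that supports nothing, a count by the study's thresholds included, and the tests reported are those of the change from 24 h to 48 h within a feed. Those tests use the same libraries as the comparisons between feeds and are not free of that choice. ID.103458 carries the name of a cell wall protein in the study's text and that of a putative glycoside hydrolase of family 25 (GH25) in its annotation, where it lies in more than 1 place of the genome, so that reads could be shared between copies. All 7 IDs matched a gene of the RefSeq annotation of strain QM6a (version 2.0), in which their spans with introns run from 709 bases for HFB1 to 2425 bases for QID74.

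RNA came from Rut-C30, a cellulase hyperproducing mutant strain of *T. reesei*. For each replicate a culture grown on glucose was divided among flasks, which then received either glucose alone (G100), lactose alone (L100), a mixture of 75% glucose and 25% lactose (G75-L25) or one of 90% glucose and 10% lactose (G90-L10). Libraries were made 24 h and 48 h after the feed began. At each time there were 6 for G100, 6 for L100, 2 for G90-L10 and 4 for G75-L25. The labels tie no library to a flask, so p-values measure the spread between these libraries, part of which may be technical. The study describes as many flasks per feed as there are libraries at each time, so both times may have come from the same flasks. The tests treat all libraries as independent. All 36 libraries come from the same strain and from mycelium that had first used up glucose. The label year is 2014 for G100 and L100 and 2015 for both mixtures, so that mixture and year cannot be told apart. Within a feed both times carry the same year.

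Hydrophobins are small secreted proteins of filamentous fungi that gather at the boundary of water and air and coat hyphae and spores with a water-repellent film. HFB1 and HFB2 are the best known ones of *T. reesei*, HFB1 from growing hyphae and HFB2 from sporulating cultures and spores, and they also make culture broths foam. QID74 was described in *Trichoderma harzianum* as a repeat-rich protein of the hyphal wall, PhiA in *Aspergillus nidulans* as a wall protein of the cells that bud off conidia, and Ncw-2 in *Neurospora crassa* as a wall protein held without a lipid anchor.

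Counts per library summed to between 9955798 and 49808747, with a median of 23493202. Levels are given in CPM, the counts scaled by edgeR to a library's total after TMM normalization, and a count of 3 corresponded to between 0.0717 and 0.369 CPM. Intervals and limits of this kind cover counting error only. Of the 9129 genes, 8347 passed the filter on low counts. All 7 members passed, although HFB1 had 3 counts or fewer in 21 of the 36 libraries and ID.103458 in 17, and both passed through the groups in which they were high.

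In 3 libraries several members lay outside the range of the rest of their group. These were all but HFB1 in 2014_274, and HFB2, HFB3, QID74, PhiA and Ncw-2 in 2015_431. In 2015_430 HFB2, HFB3, PhiA and ID.103458 lay below that range and HFB1, at 5 counts, above it. Results are given with all 36 libraries and with the 33 others. The library labelled L100 at 48 h with the number 2014_274 goes against its label, since the cellobiohydrolase CBH1, a cellulase that lactose induces, had 4154 CPM in it. The other 5 L100 libraries at 48 h had from 159390 to 206465 CPM, and the 6 G100 libraries at 48 h from 4576 to 14729 CPM. In the G75-L25 library 2015_430 at 24 h CBH1 had 91397 CPM against at most 68602 in the other 3, and in 2015_431 at 48 h it had 105688 CPM against at most 62074. These 3 libraries had been singled out in earlier work on the same data.

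**Figure D1:**
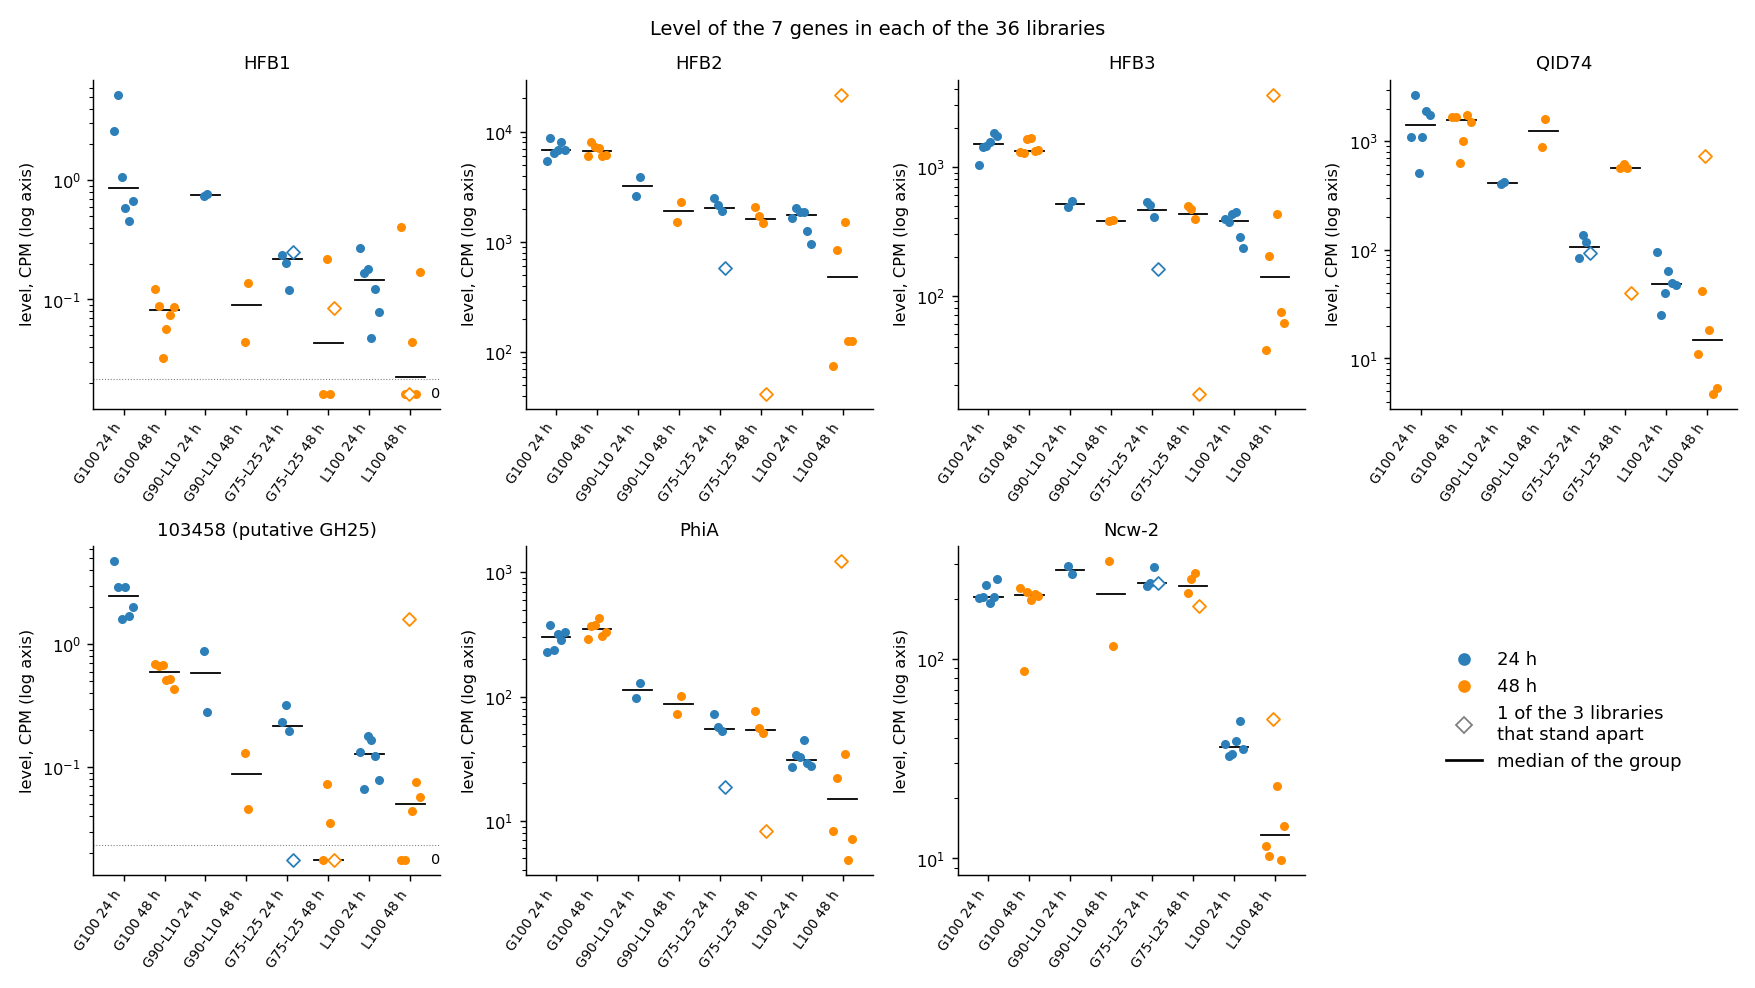
Level of each gene in every library, in CPM on a log axis, by feed and sampling time. Points are libraries, open diamonds the 3 libraries that stand apart, lines the group medians, and points under a dotted line are at 0. HFB2 lay between 5362 and 8788 CPM on G100 and at 21603 CPM in 1 diamond on L100 at 48 h.

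HFB2 was the most abundant of the 7 transcripts per kilobase in 35 of the 36 libraries, all but 2015_431, by 1.96-fold to 8.26-fold over the next, and had its highest group levels on G100. At 24 h the G100 libraries had a lowest level of 5362 CPM, a median of 6823 and a highest of 8788, and at 48 h these were 6016, 6616 and 7978. On G90-L10 the levels were 2602 and 3842 CPM at 24 h and 1518 and 2278 at 48 h. All 4 G90-L10 libraries were thus below every G100 library.

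On G75-L25 HFB2 had 2519, 2182 and 1902 CPM at 24 h, with 586 in 2015_430, and 2078, 1734 and 1484 CPM at 48 h, with 42.2 in 2015_431. On L100 at 24 h the lowest level was 957 CPM, the median 1749 and the highest 2028. The ranges of G75-L25 and L100 at 24 h overlapped, and neither reached those of G100. On L100 at 48 h the levels were 75.1, 126, 127, 842 and 1501 CPM, and 21603 in 2014_274. The first 5 spread over a wide range, and 2014_274 lay above every G100 library. Each SE given here rests on a spread estimated per gene over all 8 groups, not only over the groups compared. Against G100 the log2 fold change of HFB2 at 24 h was -2.14 ± 0.87 (SE) on L100, -1.97 ± 1.01 on G75-L25 and -1.13 ± 1.27 on G90-L10. At 48 h it was -0.74 ± 0.84, -2.34 ± 1.03 and -1.83 ± 1.33 in the same order. Over 33 libraries the value for L100 at 48 h was -3.66 ± 0.52, and the other 5 lay between -2.14 and -1.13.

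HFB2 held 0.684 to 1.09% of all counts in the G100 libraries at 24 h and 2.36% of those in 2014_274. Per kilobase of gene span its median level on G100 at 24 h was 9596 CPM, against 1826 for HFB3, 586 for QID74, 371 for PhiA, 151 for Ncw-2, 3.34 for ID.103458 and 1.22 for HFB1. The most and the least abundant member were thus both hydrophobins.

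HFB3, the third hydrophobin, followed the levels of HFB2. It ranged from 1026 to 1836 CPM on G100 at 24 h, with a median of 1503, and from 1288 to 1674 at 48 h, with a median of 1339. On G90-L10 it had 487 and 538 CPM at 24 h and 381 and 384 at 48 h. The G75-L25 libraries had 529, 507 and 410 CPM at 24 h, with 162 in 2015_430, and 494, 470 and 395 at 48 h, with 17.3 in 2015_431. The levels on both mixtures lay close together, although G75-L25 holds more lactose.

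On L100 HFB3 had between 235 and 445 CPM at 24 h, with a median of 382. At 48 h it had 37.9, 61.1, 74.5, 204 and 431 CPM, and 3638 in 2014_274. The same 2 libraries were the highest for HFB2 and HFB3 among the 5 that follow the CBH1 check, and the same 1 was the lowest. At 24 h its log2 fold change against G100 was -2.06 ± 0.73 on L100, -1.90 ± 0.84 on G75-L25 and -1.55 ± 1.10 on G90-L10. Those at 48 h were, in the same order, -0.95 ± 0.71, -2.06 ± 0.85 and -1.90 ± 1.12, and on L100 over 33 libraries -3.14 ± 0.39. Pearson's r of log2 CPM between HFB2 and HFB3 was 0.988 over the 36 libraries and 0.983 over the 33, which share feed, time and normalization and are not a random sample. HFB2 exceeded HFB3 per kilobase in every library, by 1.96-fold to 8.26-fold. That ratio was lowest on L100 at 48 h, with a median of 3.21 over 36 libraries and 2.40 over 33, and highest on G90-L10 at 24 h, with 6.19 and 8.26 in its 2 libraries.

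HFB1 was at the edge of detection in most groups and had its highest levels on G100 and G90-L10 at 24 h. The G100 libraries at 24 h held 68, 121, 32, 13, 10 and 18 counts, or 0.457 to 5.23 CPM with a median of 0.868. Those at 48 h held 3, 3, 1, 1, 2 and 3 counts, or 0.0324 to 0.122 CPM. Every G100 library at 24 h was above every one at 48 h. G90-L10 libraries held 20 and 19 counts at 24 h, and at 48 h 1 and 3.

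With 25% or more lactose HFB1 was low at both times. On G75-L25 it had 6, 5, 3 and 5 counts at 24 h and 0, 6, 0 and 2 at 48 h. On L100 it had 6, 5, 2, 2, 1 and 1 counts at 24 h and 10, 0, 0, 1, 0 and 3 at 48 h. The ranges of G75-L25 and L100 at 24 h overlapped, and so did all 4 feeds at 48 h. Summed counts per normalized library size at 24 h were 12.9-fold lower on L100 than on G100 (95% counting interval 7.90 to 22.5), 8.76-fold lower on G75-L25 (5.50 to 14.8) and 2.31-fold lower on G90-L10 (1.65 to 3.33). The G100 library 2014_249 held 121 of these counts, and without it the fitted log2 fold changes went from -3.60 to -2.91 on L100, from -3.11 to -2.40 on G75-L25 and from -1.22 to -0.52 on G90-L10. At 48 h the counting interval held 1 for every feed, and the summed level on L100 was 1.39 times that on G100 (0.604 to 3.20).

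**Figure D2:**
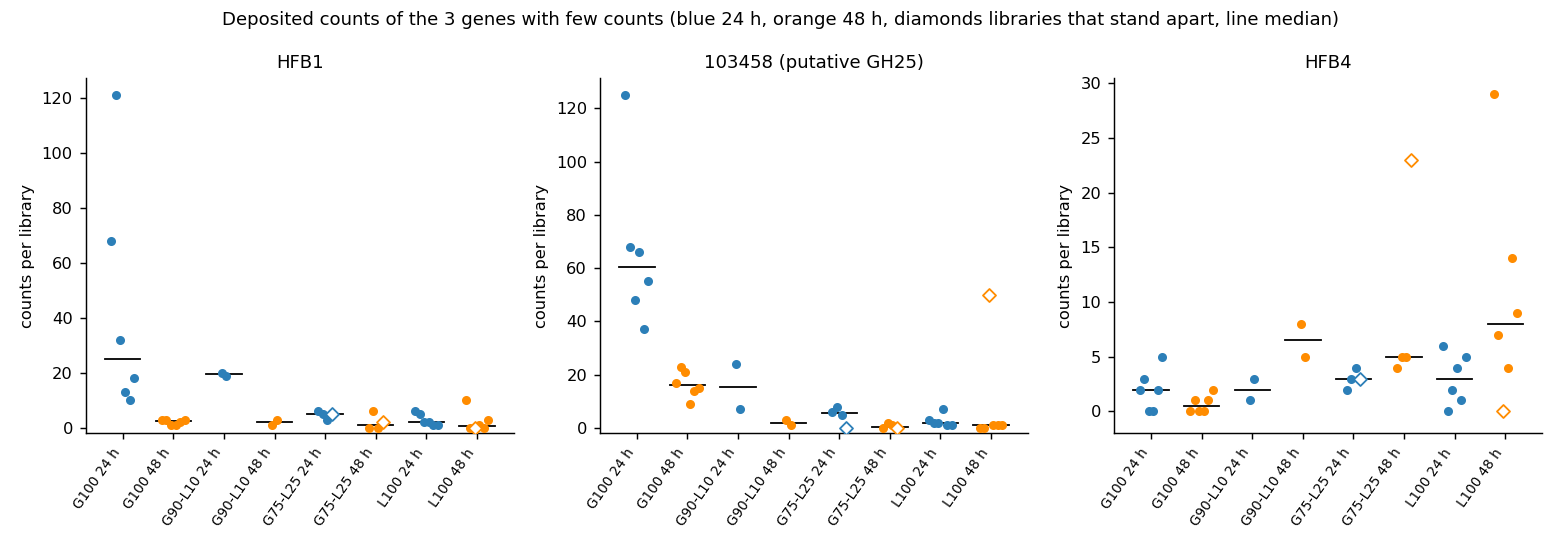
Deposited counts of HFB1, ID.103458 and the further hydrophobin HFB4 in every library, by feed and time, on linear axes that differ between panels. HFB1 and ID.103458 reached 121 and 125 counts on G100 at 24 h, while HFB4 reached 29 counts on L100 at 48 h.

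QID74 had the largest fold changes between L100 and G100 at either time and was the only member that stood higher at 48 h than at 24 h on both mixtures. G100 libraries ranged from 508 to 2693 CPM at 24 h, with a median of 1421, and from 634 to 1736 at 48 h, with a median of 1586. On G90-L10 the levels were 404 and 425 CPM at 24 h, below every G100 library, and 888 and 1604 at 48 h, inside their range. On G75-L25 they were 83.7, 139 and 119 CPM at 24 h, with 94.0 in 2015_430. At 48 h they were 573, 618 and 575 CPM, with 40.2 in 2015_431.

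On L100 QID74 ranged from 24.9 to 95.0 CPM at 24 h, with a median of 48.5. At 48 h it had 4.74, 5.29, 11.1, 18.3 and 41.9 CPM, and 732 in 2014_274. Without the 3 libraries, no group below G90-L10 at 48 h in the order of levels shared a value with its neighbour above it until G75-L25 at 24 h, whose lowest library lay under the highest one of L100 at 24 h. The log2 fold changes of QID74 against G100 at 24 h were -4.82 ± 0.93 on L100, -3.79 ± 1.05 on G75-L25 and -1.86 ± 1.26 on G90-L10. At 48 h they were -3.34 ± 0.86, -1.60 ± 0.93 and -0.14 ± 1.13 in that order, and over 33 libraries the value for L100 was -6.38 ± 0.54.

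ID.103458, the putative GH25 enzyme of a family that holds lysozymes, had few counts and was highest on G100. It had 125, 68, 48, 66, 37 and 55 counts in the G100 libraries at 24 h (1.61 to 4.72 CPM) and 17, 23, 21, 9, 14 and 15 at 48 h (0.435 to 0.690 CPM). G90-L10 libraries held 24 and 7 counts of it at 24 h, and at 48 h 3 and 1. On G75-L25 it had 6, 8 and 5 counts at 24 h and 0, 2 and 1 at 48 h, with 0 in both 2015_430 and 2015_431. Each mixture library lay below every G100 library of its time.

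On L100 ID.103458 had 3, 2, 2, 7, 1 and 1 counts at 24 h. At 48 h it had 0, 0, 1, 1 and 1 counts, and 50 in 2014_274. Summed counts per normalized library size were 20.9-fold lower on L100 than on G100 at 24 h (95% counting interval 12.7 to 36.9), and at 48 h without 2014_274 19.6-fold lower (6.51 to 96.5). With that library the ratio at 48 h was 1.45 (1.03 to 2.07). For G75-L25 over 33 libraries the ratios were 10.5 at 24 h (6.67 to 17.7) and 14.2 at 48 h (4.74 to 70.3).

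PhiA lay between 230 and 375 CPM on G100 at 24 h, with a median of 303, and between 292 and 426 at 48 h, with a median of 350. On G90-L10 it had 97.7 and 128 CPM at 24 h and 73.1 and 101 at 48 h. On G75-L25 it had 72.8, 57.1 and 53.3 CPM at 24 h, with 18.8 in 2015_430, and 76.9, 56.3 and 51.1 at 48 h, with 8.30 in 2015_431. G100, G90-L10 and G75-L25 formed steps that did not overlap at 24 h, while at 48 h the lowest G90-L10 library lay under the highest G75-L25 library.

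PhiA on L100 ranged from 27.2 to 45.0 CPM at 24 h, with a median of 31.0, and had 4.82, 7.11, 8.23, 22.1 and 34.8 CPM at 48 h, with 1224 in 2014_274. Its level in that library was 149-fold above the median of the other 5 and above every other library of the series. Against G100 at 24 h the log2 fold changes of PhiA were -3.18 ± 0.88 on L100, -2.55 ± 1.00 on G75-L25 and -1.39 ± 1.25 on G90-L10. Those at 48 h were -0.69 ± 0.81, -2.87 ± 1.02 and -2.01 ± 1.30 in that order, and -4.49 ± 0.34 on L100 over 33 libraries.

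Ncw-2 was low on pure lactose only. On G100 it ranged from 192 to 251.998 CPM at 24 h, with a median of 205, and from 86.7 to 227 at 48 h, with a median of 210. G90-L10 had 294 and 266.5 CPM at 24 h and 308 and 117 at 48 h. G75-L25 had 231, 240, 290 and 239 CPM at 24 h and 215, 251.8, 268.2 and 184 at 48 h, and the last value of each time belongs to 2015_430 and 2015_431. On L100 the range was 32.8 to 48.8 CPM at 24 h, with a median of 36.3, and the levels at 48 h were 9.79, 10.3, 11.6, 14.6 and 23.1 CPM, with 49.8 in 2014_274.

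Every L100 library therefore lay under every library of the other feeds for Ncw-2. The log2 fold changes against G100 were -2.52 ± 0.30 on L100 at 24 h and -3.26 ± 0.31 at 48 h, or -3.78 ± 0.25 over 33 libraries. On the mixtures they lay between 0.15 ± 0.39 and 0.38 ± 0.39 with TMM, and with library size alone those of G75-L25 turned to -0.15 at 24 h and -0.05 at 48 h. That scaling moved the median of all genes by -0.37 and -0.32 in these comparisons. Its shift was -0.59 at either time when L100 was set against G100, and there the direction of HFB1 at 48 h turned to -0.16, as it did on G75-L25 to -0.23. The level of Ncw-2 in 2014_274 was 4.29 times the median of the other 5 L100 libraries at 48 h and above all of them. On G90-L10 at 48 h, where the 2 libraries had 308 and 117 CPM, the fold change was -0.71 without 2015_421 and 0.69 without 2015_423.

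**Figure D3:**
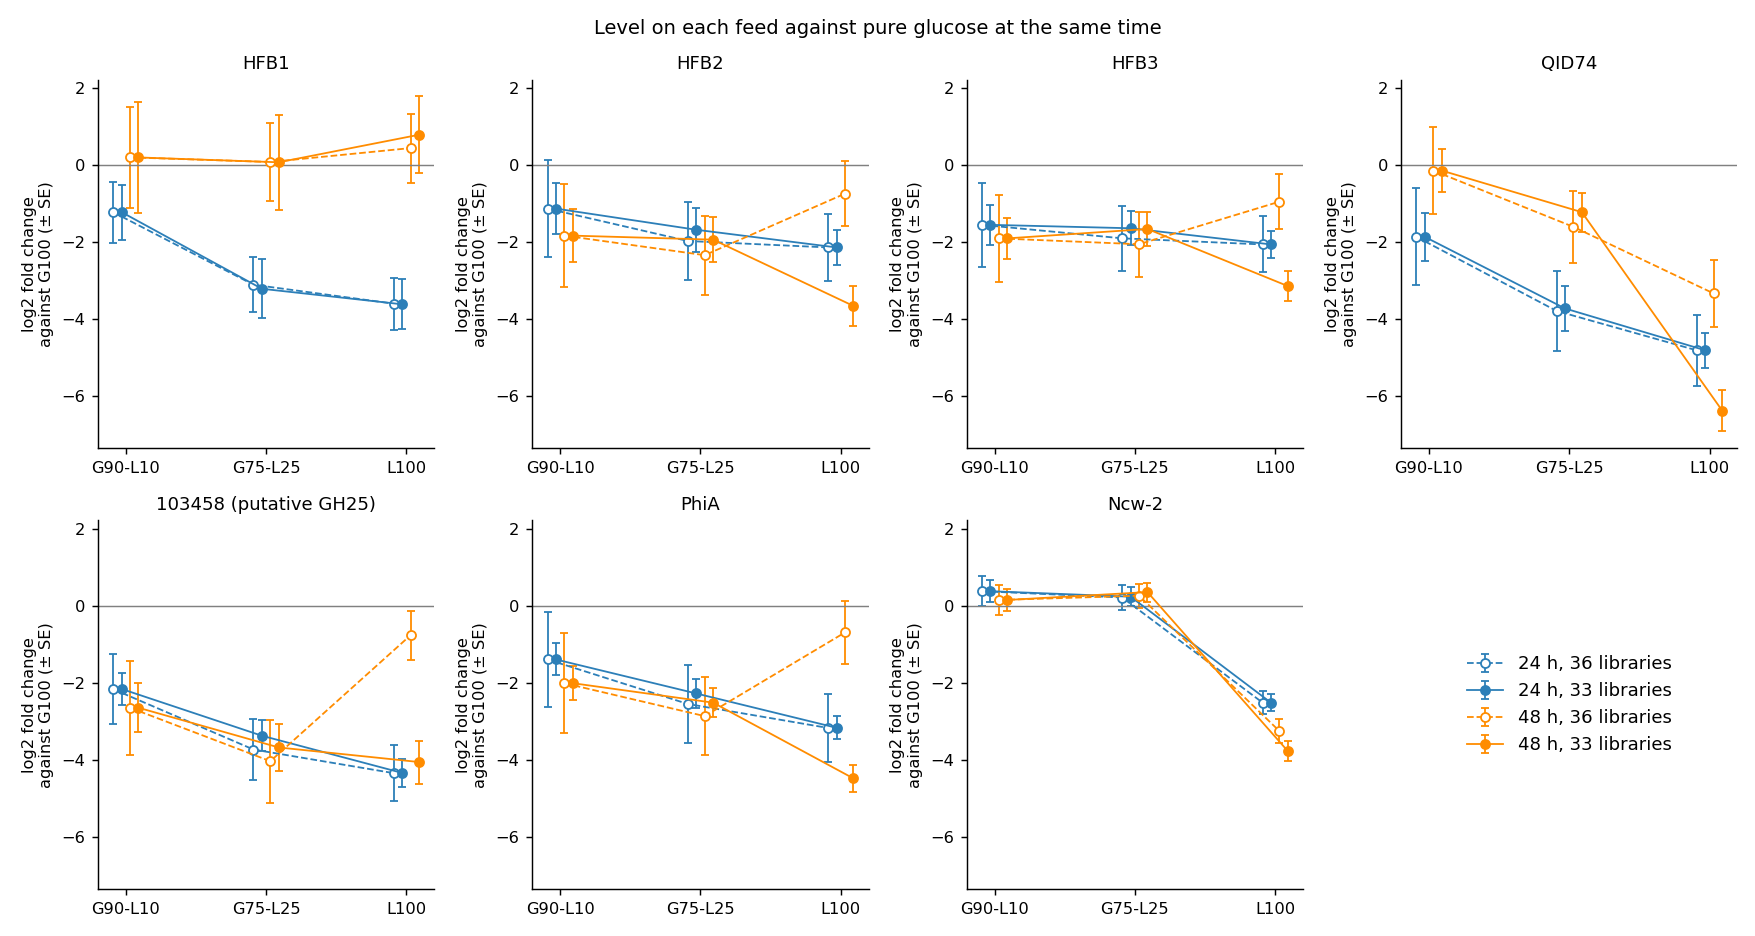
Log2 fold change of each gene on G90-L10, G75-L25 and L100 against G100 of the same time, with bars of 1 SE. Blue is 24 h and orange 48 h, closed points use 33 libraries and open points 36. Ncw-2 stays near 0 on both mixtures, between 0.15 and 0.38 over 36 libraries, and QID74 reaches -6.38 on L100 at 48 h over 33 libraries.

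The study required a log2 fold change beyond 2 in size together with an adjusted p under 0.001. By these thresholds 4 of the 7 genes were lower on L100 than on G100 at 24 h over 36 libraries and all 7 over 33. Of all genes tested 1.51% and 2.26% were lower. At 48 h 1 of 7 and 6 of 7 were lower, against 0.887% and 3.77% of all genes. The members were picked from these comparisons, so nothing is read from the counts.

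The change from 24 h to 48 h was tested within each feed by edgeR's quasi-likelihood test, with p-values adjusted over all genes tested and a call at an adjusted p below 0.05. On G100 the 5 abundant members did not pass the test, and the 2 scarce ones fell. HFB1 fell by 4.42 on the log2 scale (SE 0.68, adjusted p = 0.000102), and its summed counts were 22.5-fold lower at 48 h (95% counting interval 13.0 to 42.9). The call held without any single library, with fold changes from -4.62 to -3.71 (without 2014_249), and the adjusted p ranged from 4.65e-07 to 0.00152 over the other settings. ID.103458 fell by 2.17 (SE 0.58, adjusted p = 0.0154), and its summed counts were 4.51-fold lower (3.61 to 5.68). Without the G100 library 2014_248 its fold change was -1.93 and the adjusted p 0.0513. Both genes passed the filter on low counts through groups that include G100 at 24 h, and with no filter beyond 1 count the adjusted p by edgeR was 0.000108 for HFB1 and 0.0179 for ID.103458. These are 2 of 7 members, where 3.04% of all genes tested were called lower on G100 over 36 libraries and 7.76% over 33, and both genes were called in both sets. ID.103458 was picked by fold changes between feeds, and those comparisons hold these same G100 libraries. The count of members is therefore a description only.

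HFB2, HFB3, QID74, PhiA and Ncw-2 changed with time on G100 by -0.06 ± 0.84, -0.07 ± 0.70, -0.14 ± 0.79, 0.24 ± 0.81 and -0.17 ± 0.28 on the log2 scale. Their ranges at 24 h and 48 h overlapped.

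On L100 the direction of the change with time rested on 1 library for HFB2, HFB3, QID74, ID.103458 and PhiA. For Ncw-2 it stayed below 0 with any 1 library left out. For HFB1 it did too, but came to -0.01 ± 1.05 without 2014_274. Summed counts of HFB1 over 33 libraries were 1.04 times as high at 48 h (95% counting interval 0.474 to 2.24). Its direction is thus not settled. With all 36 libraries PhiA was called higher at 48 h (log2 fold change 2.73 ± 0.87, adjusted p = 0.0255 by edgeR) and Ncw-2 lower (-0.91 ± 0.29, adjusted p = 0.0256). These were 1 of 7 members in each direction, against 11.2% of all genes called higher and 8.39% called lower. HFB2, HFB3, QID74 and ID.103458 had values of 1.34 ± 0.85, 1.04 ± 0.71, 1.34 ± 0.81 and 1.42 ± 0.81 and did not pass, with adjusted p from 0.221 to 0.315. The call of PhiA was lost without 2014_254 and with only the L100 groups in the fit (adjusted p = 0.216 by edgeR), and DESeq2 gave neither a p-value nor an adjusted p for it. That of Ncw-2 was lost without 2014_258, 2014_272, 2014_273, 2014_276 or 2014_277, with only the L100 groups (adjusted p = 0.157 by edgeR) and with library size alone (adjusted p = 0.105 by edgeR).

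Without 2014_274 alone all of these values were below 0 and 3 of the 7 members fell, against 14.0% of all genes. QID74 fell by 1.70 (SE 0.53, adjusted p = 0.0165), PhiA by 1.07 (SE 0.41, adjusted p = 0.0492) and Ncw-2 by 1.42 (SE 0.23, adjusted p = 5.19e-05), while HFB2 at -1.57 ± 0.62 had an adjusted p of 0.0546. Over the 33 libraries 6 of 7 fell, against 16.7% of all genes. HFB2 fell by 1.58 (SE 0.47), HFB3 by 1.15 (SE 0.36), QID74 by 1.70 (SE 0.45), ID.103458 by 1.89 (SE 0.74), PhiA by 1.07 (SE 0.30) and Ncw-2 by 1.43 (SE 0.23), with adjusted p by edgeR from 4.97e-05 for Ncw-2 to 0.0498 for ID.103458. The median of the 7 members was -1.43 over the 33 libraries, beside -0.02 over all genes tested, and 1.34 beside 0.01 over the 36. All members but HFB1 were picked by fold changes between feeds, and those comparisons hold these same L100 libraries. The counts of members that fell and these medians are therefore a description only.

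HFB1 did not pass on L100 in either set, with -0.38 ± 0.88 and -0.01 ± 1.12. Of the 6 genes that fell over the 33 libraries, only Ncw-2 had 24 h and 48 h ranges without overlap. For HFB2, HFB3, QID74 and PhiA the libraries 2014_273 and 2014_275 at 48 h reached into or close to the range at 24 h, while 2014_272, 2014_276 and 2014_277 lay below it. Among these 5 libraries HFB2 ran from 75.1 to 1501 CPM.

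**Figure D4:**
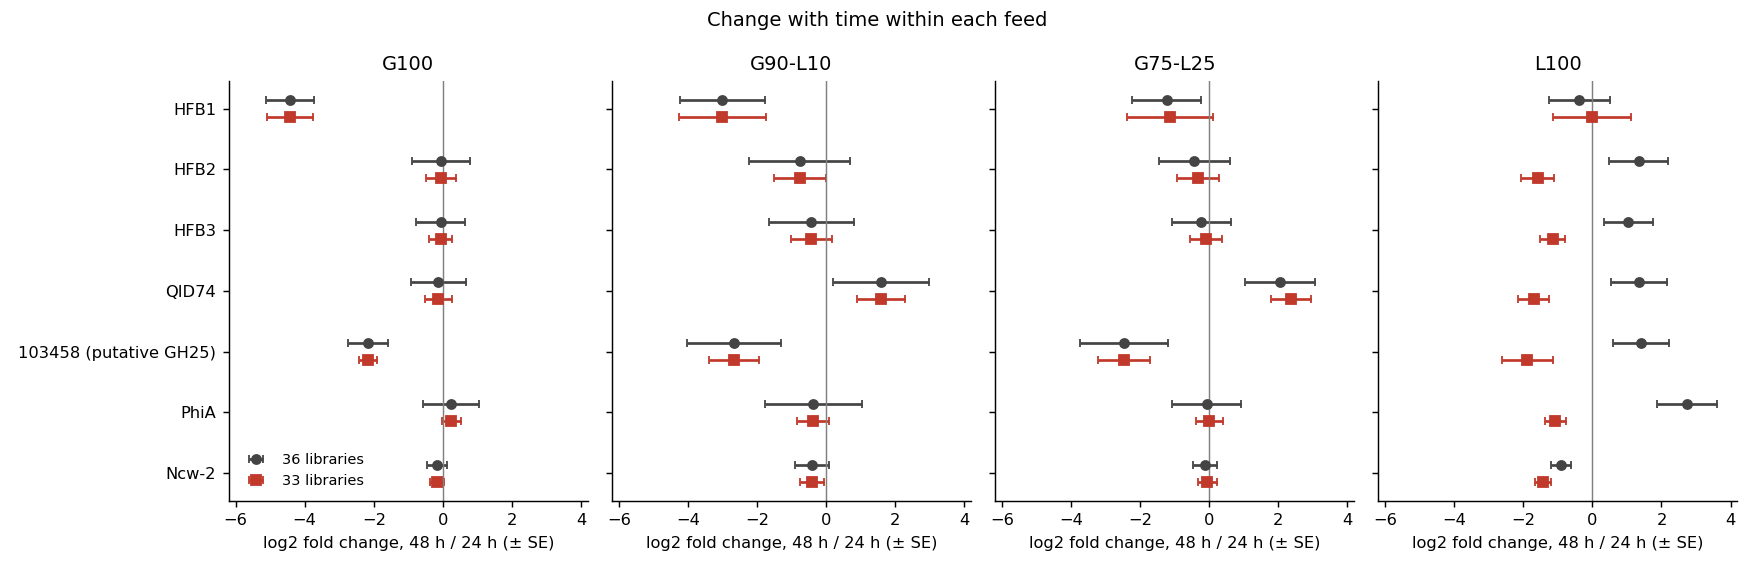
Log2 fold change of each gene from 24 h to 48 h within each feed, with bars of 1 SE, over 36 libraries (dark circles) and 33 libraries (red squares). On L100 the circles of PhiA and HFB2 lie at 2.73 and 1.34 and their squares at -1.07 and -1.58. On G100 HFB1 lies at -4.42 in both.

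On the mixtures few genes of any kind passed the test with time. For G75-L25 over 36 libraries 0 of 7 members were called, against 0.264% of all genes, and 680 genes had an unadjusted p below 0.05. QID74 had a log2 fold change of 2.05 ± 1.01 (adjusted p = 0.611 by edgeR). Over the 33 libraries it rose by 2.37 (SE 0.58, adjusted p = 0.0352), as 1 of 7 members against 0.756% of all genes called higher, and all 3 libraries at 48 h lay above all 3 at 24 h. The 33 leave out 2015_431, which had 40.2 CPM of QID74, far below the others at 48 h. Neither the call nor the separation is therefore independent of that exclusion. Without 2015_431 alone the value was 2.43 and the adjusted p 0.314.

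For G90-L10, with 2 libraries at each time, 0 of 7 members passed over 36 or 33 libraries, against 0.0958% and 0.492% of all genes. At an unadjusted p below 0.05 there were 470 and 920 genes. QID74 had 1.59 ± 1.40, HFB1 -3.00 ± 1.24 and ID.103458 -2.65 ± 1.36 over 36 libraries. Both libraries at 48 h lay above both at 24 h for QID74 and below both for HFB1, HFB2, HFB3 and ID.103458. With 2 libraries at each time such a separation can easily arise by chance. Its share over all genes was not counted, so nothing is read from it. For HFB1 the summed counts were 8.42-fold lower at 48 h (95% counting interval 3.04 to 32.4). Whether a gene's change with time differed between feeds was not tested.

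A further hydrophobin, HFB4 (ID.104293), belongs to a list of 9 other surface proteins from the study's annotation. At 48 h it had the opposite pattern between feeds, at low counts, with 3 counts or fewer in 20 of the 36 libraries. At 24 h its summed counts per normalized library size on L100 were 1.79 times those on G100 (95% counting interval 0.817 to 4.08). On G100 HFB4 was 3.36-fold lower at 48 h than at 24 h (1.02 to 14.3). On L100 at 48 h it had 29, 7, 4, 14 and 9 counts, and 0 in 2014_274, while the G100 libraries at 48 h had 0, 1, 0, 0, 1 and 2. On G75-L25 at 48 h it had 4, 5, 5 and, in 2015_431, 23 counts, and on G90-L10 8 and 5. In the libraries 2014_274 and 2015_431, where HFB2 was highest and lowest of all, HFB4 thus went the other way. With time on L100 HFB4 had 1.70 ± 0.72 over 36 libraries (adjusted p = 0.0918 by edgeR) and rose by 2.04 over 33 (SE 0.55, adjusted p = 0.00570). Over the 33 libraries HFB4 passed the filter on low counts only through L100 at 48 h, the group in which it was high. The call over 33 is thus not free of the filter. Summed counts were 3.37-fold higher at 48 h over 36 libraries (95% counting interval 1.97 to 6.05) and 4.41-fold higher over 33 (2.58 to 7.92).

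Over 36 libraries 779 of the 8347 genes tested were called with time on G100, 22 on G75-L25 and 8 on G90-L10. Over 33 libraries 1596, 126 and 41 of 8335 were called in the same order. Of the 9 surface proteins, 0 passed with time on G100 and on either mixture, over 36 or 33 libraries. On L100 over 36 libraries, where 11.2% of all genes were called higher and 8.39% lower, 1 rose, the putative GPI-anchored protein ID.104584 with 2.06 ± 0.71, and 2 fell, the putative cell wall protein ID.123659 with -1.34 ± 0.38 and ID.65522, named for cell adhesion, with -0.71 ± 0.14. Over 33 libraries HFB4 rose and 5 fell, against 16.3% of all genes called higher and 16.7% lower, with the largest change in the putative cell wall protein ID.121251 (-3.04 ± 0.44), and ID.104584 was among those that fell (-1.06 ± 0.26). The list was drawn from genes that the study found between feeds.

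Chitinases of family GH18 cut the chitin of fungal walls. Of 5 measured, 3 rose on L100 over 36 libraries, against 11.2% of all genes, with the largest change in CHI18-14 (5.24 ± 1.32). Over 33 libraries CHI18-9 rose by 1.28 (SE 0.10) and CHI18-rel1 fell by 1.72 (SE 0.66), against 16.3% and 16.7% of all genes, and CHI18-14 had 0.08 ± 1.28. On G100 CHI18-14 fell by 1.16 over 33 libraries (SE 0.38), against 7.76% of all genes called lower. There 0 of 5 passed over 36, as on both mixtures over either set, beside the counts over all genes given with the surface proteins. Of 5 glucanases, enzymes that cut wall glucans, 1 fell on L100 over 36 libraries (ID.50215, -0.60 ± 0.15), against 8.39% of all genes, and 4 over 33, against 16.7%, with the largest change in ID.70845 (-0.67 ± 0.22).

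Of 5 genes of development, MedA, known from *Aspergillus* as a regulator of spore formation, rose on L100 over 36 libraries (1.57 ± 0.54), against 11.2% of all genes. Over 33 libraries it had -0.15 ± 0.24, while WetA, needed for spore maturation in *Aspergillus*, fell by 0.63 (SE 0.23), and the pheromone receptor HPR1 fell by 1.09 (SE 0.34), against 16.7% of all genes. None of the glucanases or genes of development passed with time on G100 or on the mixtures, over 36 or 33 libraries. The counts over all genes beside this are those given with the surface proteins. Calls of these lists on L100, like those of the members, differed between the 36 and the 33 libraries. The median log2 fold change with time on L100 went from -0.11 to -0.82 in the surface proteins, from 1.20 to 0.08 in the chitinases, from -0.45 to -0.62 in the glucanases and from 0.80 to -0.48 in the genes of development, beside 0.01 and -0.02 over all genes tested. On G100 over 36 libraries these medians were -0.09, -1.07, 0.22 and 0.14 in the same order of lists, beside -0.01 over all genes.

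The genes most like each member were taken as the 3 with the highest Pearson's r of log2 CPM over the 36 libraries, among all genes tested and with no p. For HFB2 they were HFB3 (0.988) and ID.120697 (0.981) and ID.4999 (0.981), and for HFB3 they were HFB2, ID.120697 (0.986) and ID.119963 (0.978). For PhiA they were ID.123968 (0.985), ID.80528 (0.977) and ID.65483 (0.975), and for QID74 ID.48951 (0.938), ID.26462 (0.932) and ID.69066 (0.931). HFB2 and HFB3 are thus each other's nearest gene of all those tested, over 33 libraries as well. Of the 3 nearest genes over 36 libraries, 0 for QID74, 1 for PhiA, 1 for HFB2 and 2 for HFB3 were also among the 3 nearest over 33.

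For Ncw-2 the nearest genes were ID.63217 (0.950), ID.67647 (0.941) and ID.54198 (0.941), and the same 3 came first over the 33 libraries in another order. For ID.103458, which kept 1 of its 3 over 33 libraries, they were ID.33169 (0.920), ID.52956 (0.918) and ID.77466 (0.916), and for HFB1 ID.111442 (0.828), ID.53153 (0.789) and ID.67300 (0.749), which were also its 3 nearest over 33 libraries. Both of these members rest on few counts. Among the members themselves, PhiA had an r of 0.939 with HFB2, 0.942 with HFB3 and 0.884 with QID74 over 36 libraries, and Ncw-2 had 0.510 with HFB2, or 0.747 over the 33.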

How the data were processed

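Libraries were sequenced on a HiSeq instrument as 50-base reads from stranded mRNA preparations. Per the labels and the study's methods, the deposited counts per gene were made by the authors in the Eoulsan pipeline, in which unknown bases at read ends were trimmed and reads under 40 bases or with a mean quality under 30 were removed. The submitters' processing notes name bcl2fastq 2.17.1.14, Bowtie and HTSeq 0.5.3, and annotation version 2 was used. The strand and multi-mapping settings of the counting are not given in the sources used here. No count column of another series was present, and no pair of libraries held identical counts.

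Counts were analysed in R 4.3.3 with edgeR 4.0.16, by TMM normalization, filterByExpr with a minimum count of 10 and the quasi-likelihood test over 36 libraries in 8 groups, with Benjamini-Hochberg adjustment. The fits were tried on simulated data with the same spread for every gene and changes only in genes above the lowest counts. Those data do not cover the wide spread or the lowest counts of the members, so nothing is read from them. Log2 CPM used a prior count of 2, and values after ± are SE. For scarce genes the ratio of summed counts with an exact 95% interval was added after seeing the data, as were the nearest genes over 33 libraries. Alternatives were DESeq2 1.42.0, RLE factors, library size alone, other filters and thresholds, only the groups compared, 33 libraries, and each library left out in turn. The 33 libraries leave out the 3 that stand apart.

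The 7 members and the lists were chosen with earlier results of these data known. All members were named, and of the other lists the gene with the largest change past the threshold in each feed over 36 or 33 libraries, every hydrophobin, the genes of the check of the labels, and the 3 genes nearest to each member. Genes named beside these (ID.65522, ID.123659, CHI18-9 and WetA) were chosen after their values were seen. The pheromone gene HPP1 of the development list was not analysed here.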

Additional observations from a re-analysis of the deposited data

Results flagged for a closer look

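In 7 of the 42 sets of 1 member in 1 group of 4 or 6 libraries, a single library stood out. On a log scale of level it lay farther from its neighbour than Dixon's 95% limit allows. For a single set chance gives about 1 in 20, but the same libraries recur over the members, so the sets are not independent. Of the 7, 3 belong to the G75-L25 library 2015_431 at 48 h. It had 42.2 CPM of HFB2, 17.3 of HFB3 and 40.2 of QID74, each below the other 3 libraries. Another 2 belong to the L100 library 2014_274 at 48 h, which had 1.61 CPM of ID.103458 and 1224 of PhiA, each above the other 5. For Ncw-2 the G100 library 2014_267 at 48 h stood low with 86.7 CPM, and the G75-L25 library 2015_428 at 24 h stood high with 290 CPM. Neither of these 2 libraries is among the 3 that were set apart.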

How the results depend on the processing

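No paired analysis was possible because the labels give library numbers but no replicate numbers, and tie no library to a culture. Libraries of 24 h and 48 h that may share a flask were thus tested as independent. On G100 779 genes were called with time, against 264 with library size alone, 2108 with only the groups compared and 1596 over 33 libraries. A call also at an absolute log2 fold change above 1 left 74 and the study's thresholds 7, and leaving out 1 library gave 486 (without 2014_248) to 768. On L100 1639 were called, against 539 with only the groups compared, 2750 over 33 libraries, 181 and 2 with the fold change thresholds, and 1200 (without 2014_254) to 2392 (without 2014_274). On G75-L25 22 were called, against 59 by DESeq2, 9 with library size alone, 126 over 33 libraries, 9 and 2 with the fold change thresholds, and 9 to 71 (without 2015_431). On G90-L10 8 were called, against 25 by DESeq2, 5 with RLE, 3 with library size alone, 4 with at least 10 counts in every library, 0 with only its own 4 libraries in edgeR (624 at an unadjusted p below 0.05), 41 over 33 libraries, 5 and 1 with the fold change thresholds, and 1 to 13.

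Of the members' changes with time on L100, those of HFB2 (-1.58), HFB3 (-1.15), QID74 (-1.70), ID.103458 (-1.89) and PhiA (-1.07) turned below 0 over 33 libraries, and PhiA on G75-L25 turned to 0.0051. Leaving out 1 library gave on L100 -1.57 to 1.60 for HFB2, -1.14 to 1.29 for HFB3, -1.70 to 1.60 for QID74, -1.87 to 1.68 for ID.103458 and -1.07 to 2.98 for PhiA, each lowest without 2014_274. It gave on G100 -0.13 to 0.015 for HFB2 and -0.32 to 0.11 for QID74, on G75-L25 -0.49 to 0.17 for HFB3 and -0.40 to 0.28 for PhiA, and on G90-L10 -1.25 to 0.14 for Ncw-2, none of which passed the test. RLE factors and no filter changed no call or direction of a member. DESeq2 gave neither a p-value nor an adjusted p with time for HFB2, HFB3 and PhiA in any feed, so it offers no second test of them. HFB1 and ID.103458 gave no value with at least 10 counts in every library. Counts of 3 or fewer limit HFB1 and ID.103458 in 21 and 17 of the 36 libraries. The cause of these differences was not tested.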
